A study of Oryctolagus cuniculus with 8 samples.

Results

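The miR-26 microRNAs were followed in extracellular vesicles, the membrane particles that cells shed into body fluids, recovered from the uterus and the oviduct of rabbits. Every name of miR-26a or miR-26b was taken, from both arms of the precursor, which gave 4 of the 579 mature miRNA names in the table. The leading arms were ocu-miR-26a-5p and ocu-miR-26b-5p, and the others were ocu-miR-26a-3p and ocu-miR-26b-3p; the species prefix is left out below. Each stood on 1 row and came from 1 annotated precursor. Names alone set the choice, with no measured value used, but it was made with earlier results of these data known.

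All animals were wild-type, sexually mature California x New Zealand white does that had littered before. All 21 were synchronised with the gonadotropin eCG (25 IU) and induced to ovulate 48 h afterwards with a synthetic GnRH analogue (20 µg), and the tracts were collected and flushed 14 to 15 h after that injection. The groups were uterine fluid vesicles (3 libraries, pools of 5 animals per the labels' protocols) and oviductal fluid vesicles (5 libraries, pools of 3 animals). There was no untreated or unovulated group. The pools hold more places than there were does, so some does contributed to more than 1 pool, and p-values measure the spread between pools that may not be independent. Uterine libraries are called replicates 12, 3 and 4 after their titles, and the first of these has the number 1 in its library name. The labels do not say whether its title stands for more than 1 pool, so its number of animals is uncertain.

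miR-26a and miR-26b share the same seed, the stretch at the 5′ end that pairs with target messages, and differ by only a few bases elsewhere. Their genes lie within genes of the small C-terminal domain phosphatases, and in the RefSeq annotation of the rabbit assembly mOryCun1.1 MIR26A lies inside CTDSP2 and MIR26B inside CTDSP1. In human and mouse cells the family is known for repressing EZH2, the histone methyltransferase of the Polycomb complex, and for being repressed by MYC. The 5p arm is the one usually loaded into Argonaute proteins, while most of the 3p arm is degraded. In human a further miR-26a locus lies in CTDSPL, and reads of any such copy with the same mature sequence would be counted under the same name here. The mature forms are similar enough that the authors' counting could also have placed some reads of one under the other, so the split between miR-26a and miR-26b is less certain than their sum.

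Libraries held 232546 to 479865 miRNA reads in the uterine group and 42684 to 569087 in the oviductal group, counting 1 row per name. The shallowest were oviductal replicates 2 and 3. Levels are given as reads or as CPM, reads scaled to a library sum of 1000000. Markers of the labelled source were read as summed shares of a list. The miRNAs of multiciliated cells (miR-34b, miR-34c and miR-449a) took 0.495% to 3.38% of uterine and 2.77% to 6.12% of oviductal reads. Those of epithelium (miR-200c and miR-141, 2 of 5 listed names in the table) took 0.470% to 2.36% of uterine and 3.38% to 5.08% of oviductal reads. Muscle miRNAs took 0.560% to 4.50% of uterine and 0.363% to 0.452% of oviductal reads. Not every name went with its sum. In mean CPM (± SD), miR-449a-5p was at 162 ± 281 in uterine and 57.0 ± 37.3 in oviductal libraries. The muscle miRNA miR-133a-3p was at 18.5 ± 13.9 and 62.5 ± 101. The other multiciliated and muscle names went with their sums. In epithelium miR-141-3p was at 906 ± 482 and 891 ± 493, and miR-200c-3p at 13262 ± 9178 and 39515 ± 6557. Small shares went to erythrocyte (0.120% to 0.768% uterine, 0.0922% to 0.288% oviductal), leukocyte (0.0786% to 0.349% uterine, 0.100% to 0.235% oviductal) and liver miRNAs (0.0299% to 0.306% uterine, 0.00615% to 0.0588% oviductal), and no endothelial name was in the table. Their part in the values below was not tested.

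miR-26a-5p was among the most abundant miRNAs of every library. It had 6407, 10297 and 9328 reads in uterine replicates 12, 3 and 4, against 19516, 1537, 1212, 6236 and 26518 reads in oviductal replicates 1 to 5. These were 27552, 21458 and 32019 CPM in the uterine libraries, against 44201, 32291, 28395, 24494 and 46597 CPM in the oviductal libraries. The groups overlapped: oviductal replicates 5 and 1 stood above all others, while oviductal replicates 3 and 4 lay within the uterine range. In rank order it was 9th, 9th and 8th in uterine replicates 12, 3 and 4, against 5th, 8th, 10th, 11th and 4th in oviductal replicates 1 to 5. Uterine libraries averaged 27009 ± 5301 CPM (SD, n = 3) and oviductal libraries 35196 ± 9751 CPM (SD, n = 5). Counting error was small beside this spread, as the lowest share, 2.15% in uterine replicate 3, had a 95% Wilson interval of 2.11% to 2.19%. Such intervals cover counting error only.

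miR-26b-5p, from the precursor in CTDSP1, was far less abundant. It had 464, 474 and 547 reads in uterine replicates 12, 3 and 4, against 735, 36, 72, 536 and 995 reads in oviductal replicates 1 to 5. These were 1995, 988 and 1878 CPM in the uterine libraries, against 1665, 756, 1687, 2105 and 1748 CPM in the oviductal libraries. Again the groups overlapped, with 1 low library in each: uterine replicate 3 and oviductal replicate 2. The low oviductal value rests on 36 reads and its share of 0.0756% had a 95% Wilson interval of 0.0546% to 0.105%, below that of every other oviductal library. Uterine libraries averaged 1620 ± 551 CPM (SD, n = 3) and oviductal libraries 1592 ± 500 CPM (SD, n = 5). Its rank ran between 29th and 46th in the uterine libraries and between 42nd and 58th in the oviductal libraries.

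**Figure D1:**
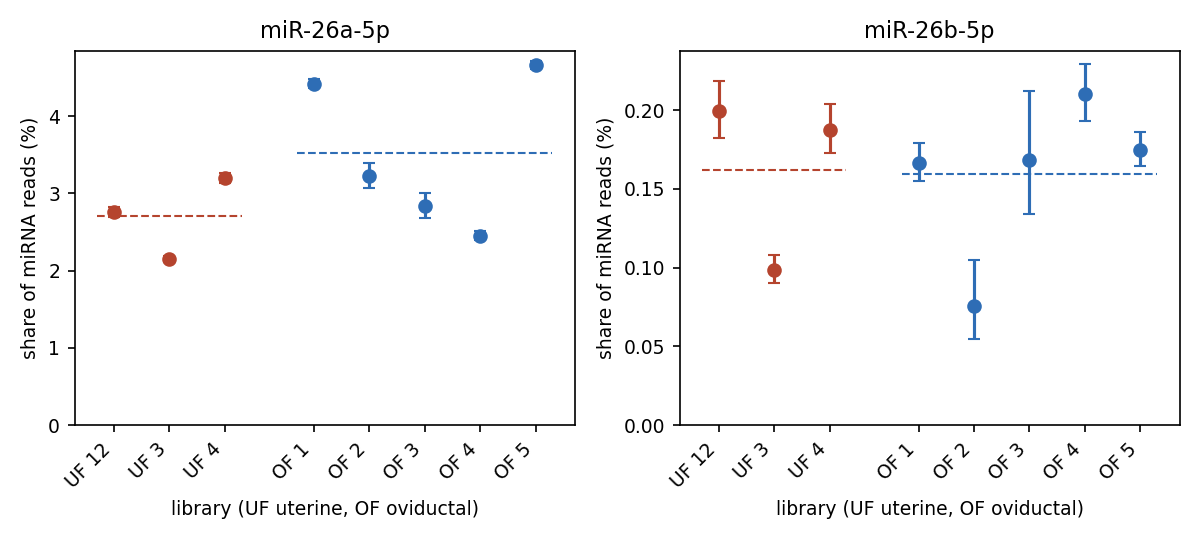
Share of all miRNA reads (%) taken by miR-26a-5p (left) and miR-26b-5p (right) in each library, with uterine libraries (UF) in red and oviductal libraries (OF) in blue. Bars are 95% Wilson intervals of the counts and dashed lines group means; the groups overlap for both miRNAs, with oviductal replicates 1 and 5 highest for miR-26a-5p at 4.42% and 4.66%.

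Set in the order of group means, miR-26a-5p was 8th in uterine and 7th in oviductal vesicles. In both it came next after let-7f-5p, which averaged 31979 ± 14001 CPM over uterine (SD, n = 3) and 37444 ± 4648 CPM over oviductal libraries (SD, n = 5). It was followed by the smooth muscle miRNA miR-143-3p in uterine (23785 ± 19837 CPM, SD, n = 3) and by let-7a-5p in oviductal vesicles (34774 ± 5815 CPM, SD, n = 5). None of these neighbours was separated from it by more than the spread between libraries: let-7f-5p was above it in 2 of 3 uterine and 3 of 5 oviductal libraries. miR-26b-5p was 43rd in uterine vesicles, between miR-148b-3p and miR-181d-5p at 1628 ± 362 and 1581 ± 310 CPM (SD, n = 3). In oviductal vesicles it was 52nd, between miR-181d-5p and miR-378-3p at 1610 ± 468 and 1253 ± 661 CPM (SD, n = 5), again within the spread.

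The leading arms gave nearly all reads of the family. The 4 names summed to 2.95%, 2.24% and 3.40% of reads in uterine replicates 12, 3 and 4, against 4.59%, 3.30%, 3.01%, 2.66% and 4.84% in oviductal replicates 1 to 5. The means were 2.87% ± 0.581 in uterine (SD, n = 3) and 3.68% ± 0.974 in oviductal vesicles (SD, n = 5). Shares of reads move with the dominant miRNA of the libraries, miR-148a-3p, which took 29.2% to 54.4% of uterine and 27.1% to 37.0% of oviductal reads. With miR-148a-3p left out of the total, a choice made after the data were seen, miR-26a-5p held 5.26%, 4.70% and 4.52% in uterine replicates 12, 3 and 4. In oviductal replicates 1 to 5 it then held 7.02%, 4.79%, 3.98%, 3.36% and 6.53%. On this basis the means were 4.83% ± 0.384 in uterine (SD, n = 3) and 5.14% ± 1.59 in oviductal vesicles (SD, n = 5), and the uterine values lay inside the oviductal range.

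The design sets uterine vesicles against oviductal vesicles. Neither leading arm passed the test. The log2 fold change of uterine over oviductal was -0.03 ± 0.39 (SE) for miR-26a-5p, with an edgeR quasi-likelihood adjusted p of 0.986, and 0.35 ± 0.52 (SE) for miR-26b-5p, with an adjusted p of 0.825, over all 178 miRNAs tested. The 95% interval of the fold ran between 0.553 and 1.73 for miR-26a-5p and between 0.593 and 2.73 for miR-26b-5p. Differences within those bounds remain possible. The bounds are not limits of detection and do not say which larger differences would have passed. Of all tested miRNAs 1.69% passed the threshold of 0.05, and 13.5% had groups that did not overlap in TMM-scaled values. Neither miR-26a-5p nor miR-26b-5p was among them. By size of log2 fold change miR-26a-5p was the 6th smallest of the 178 and miR-26b-5p the 49th. In these bulk libraries fewer vesicles of a given cell type and fewer copies per vesicle cannot be told apart.

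The scaling bears on the sign for miR-26a-5p. The test used TMM factors, which assume that most miRNAs do not differ, and these were 0.666 to 1.21 in the uterine and 0.918 to 1.29 in the oviductal libraries. Over all tested miRNAs the median log2 fold change was -0.02 with TMM, -0.31 with library totals only and 0.19 with upper-quartile factors. miR-26a-5p was at -0.03, -0.38 and 0.15 in the same 3 settings, so that relative to the median it was at -0.01, -0.07 and -0.04. miR-26b-5p was at 0.35, 0.02 and 0.56, and relative to the median at 0.37, 0.33 and 0.37. Across every setting run, these relative values covered a wider range. They ran between -0.27 and 0.52 for miR-26a-5p and between -0.10 and 0.96 for miR-26b-5p, both highest without uterine replicate 4. Over all 18 alternatives neither passed, with adjusted p of 0.646 to 0.999 for miR-26a-5p and 0.621 to 0.998 for miR-26b-5p (edgeR, DESeq2 or limma-voom).

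**Figure D2:**
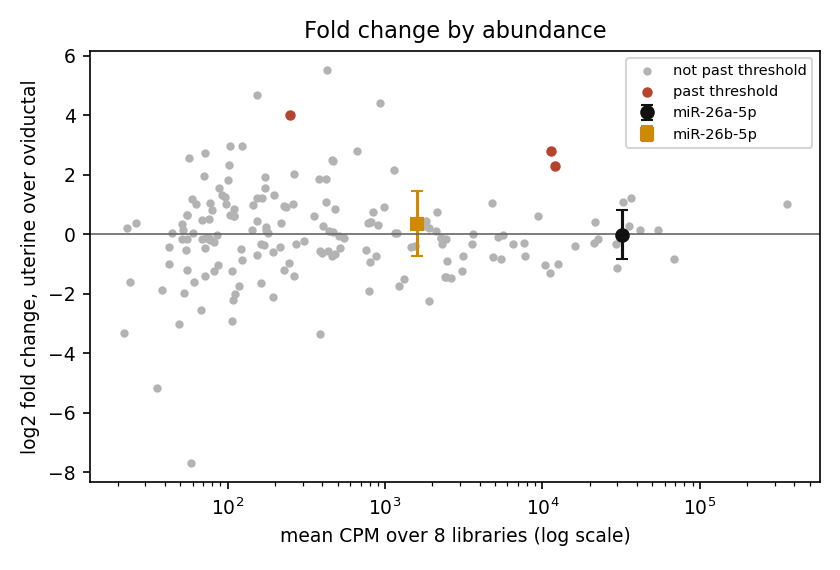
Log2 fold change (uterine over oviductal, edgeR) of the 178 tested miRNAs against their mean CPM over 8 libraries on a log scale. Bars on miR-26a-5p (black circle) and miR-26b-5p (orange square) are 95% intervals; both include 0, and the red points are the miRNAs past the adjusted p threshold of 0.05.

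The balance of the pair can be read within a library, where no scaling is needed. miR-26a-5p had 13.8, 21.7 and 17.1 times the reads of miR-26b-5p in uterine replicates 12, 3 and 4, against 26.6, 42.7, 16.8, 11.6 and 26.7 times in oviductal replicates 1 to 5. The uterine ratios lay inside the oviductal range, which held both the highest and the lowest library. On the log2 scale the ratio averaged 4.11 ± 0.33 in uterine (SD, n = 3) and 4.49 ± 0.71 in oviductal vesicles (SD, n = 5). The difference of -0.39 did not pass an exact two-sided permutation test over the 56 splits (p = 0.393, adjusted p = 0.786 over 2 tests), for which the smallest possible p is 0.0357. The difference was -0.63 without oviductal replicate 4 and -0.16 without oviductal replicate 2.

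As a share of the 5p reads of the pair, miR-26b-5p made up 6.75%, 4.40% and 5.54% in uterine replicates 12, 3 and 4. The oviductal libraries covered a wider range, which takes in all 3 uterine values. Oviductal replicate 4 was highest at 7.91%, with a 95% Wilson interval for counting error of 7.30% to 8.58%. In oviductal replicates 1 and 5, the deepest of that group, it made up 3.63% (3.38% to 3.90%) and 3.62% (3.40% to 3.84%), nearly the same value. Replicate 2 was lowest at 2.29% (1.66% to 3.15%), an interval that touches none of the others. Replicate 3 held 5.61% (4.48% to 7.00%).

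**Figure D3:**
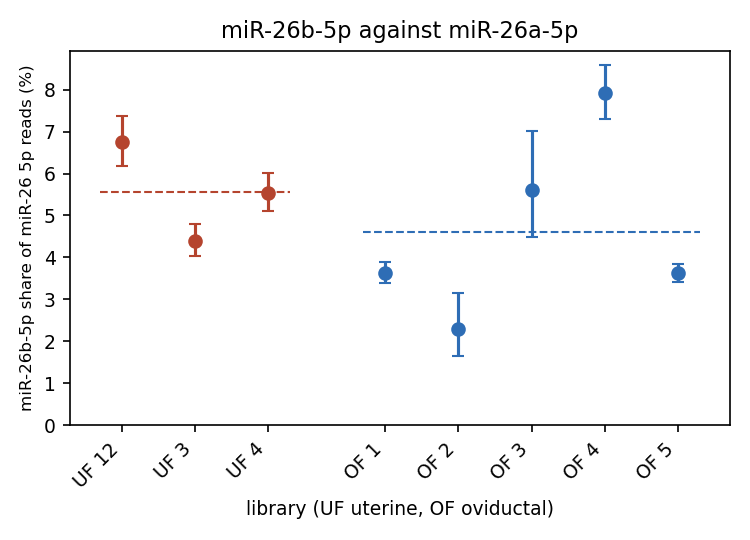
miR-26b-5p as a share (%) of the summed 5p reads of miR-26a and miR-26b in each library, uterine (UF) in red and oviductal (OF) in blue. Bars are 95% Wilson intervals and dashed lines group means, at 5.56% for uterine and 4.61% for oviductal libraries; oviductal replicates 4 and 2 are the highest and lowest.

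The 3p arms were rare and neither passed the filter on low counts. miR-26a-3p had 44 reads in all, namely 0, 0 and 18 in uterine replicates 12, 3 and 4, against 1, 0, 0, 0 and 25 in oviductal replicates 1 to 5. In uterine replicate 4 it was 0.193% of the reads of its precursor (95% Wilson interval 0.122% to 0.304%), and in oviductal replicate 5 it was 0.0942% (0.0638% to 0.139%). For a count of 0 the upper end of the 95% Wilson interval was 0.0599% in uterine replicate 12, 0.0373% in uterine replicate 3 and 0.0616% in oviductal replicate 4. All 3 are below both of those intervals, the last only narrowly. The single read in oviductal replicate 1 gave 0.00512% (0.000904% to 0.0290%). For oviductal replicates 2 and 3 the upper end was 0.249% and 0.316%, so that an equal share was not detectable there. miR-26b-3p had 1 read, in oviductal replicate 5.

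The log2 ratio of the 5p to the 3p arm of miR-26a was 12.32 ± 2.91 in uterine (SD, n = 3) and 12.03 ± 1.58 in oviductal vesicles (SD, n = 5), with 0.5 reads added to each count. The difference of 0.29 did not pass (exact two-sided permutation p = 0.893, adjusted p = 0.893), and in libraries without 3p reads this ratio is set by depth. No ratio was computed for miR-26b. Among 69 other precursors with both arms in the table and at least 1000 reads, the minor arm took a median of 0.175% of reads over all libraries, against 0.0543% for miR-26a and 0.0259% for miR-26b. Of those 69, 26 had a lower share than miR-26a and 19 a lower share than miR-26b. Pooled over the 69 precursors, the minor arm share was 0.623%, 1.32% and 1.94% in uterine replicates 12, 3 and 4, against 1.43%, 1.32%, 1.65%, 1.79% and 2.07% in oviductal replicates 1 to 5. The 2 libraries with most miR-26a-3p reads were also the highest in this share, and the part of that in the miR-26a-3p counts was not tested.

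miR-26a-5p varied little between libraries. The SD of its TMM-scaled log2 CPM over all 8 libraries was 0.40, and 3 of the 178 tested miRNAs had a smaller one, where the median was 1.24. Abundant miRNAs vary less in general, and of the 11 others within 2-fold of its mean CPM 2 had a smaller SD (median 0.68). Within the uterine group its SD was 0.24 (n = 3), with 1 of those 11 smaller and a median among them of 0.58. Within the oviductal group it was 0.51 (n = 5), with 9 of the 11 smaller and a median of 0.42. It was thus among the steadier miRNAs of its abundance across the uterine pools and among the more variable ones across the oviductal pools, a description that was not tested. With library totals in place of TMM the SD was 0.29 in the uterine and 0.40 in the oviductal group.

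For miR-26b-5p the SD was 0.64 over all libraries, 0.47 in the uterine and 0.72 in the oviductal group. Of the 31 others within 2-fold of its mean CPM, 7, 5 and 18 had smaller ones. Oviductal replicate 2 weighed most: without it the SD over the remaining libraries was 0.35.

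**Figure D4:**
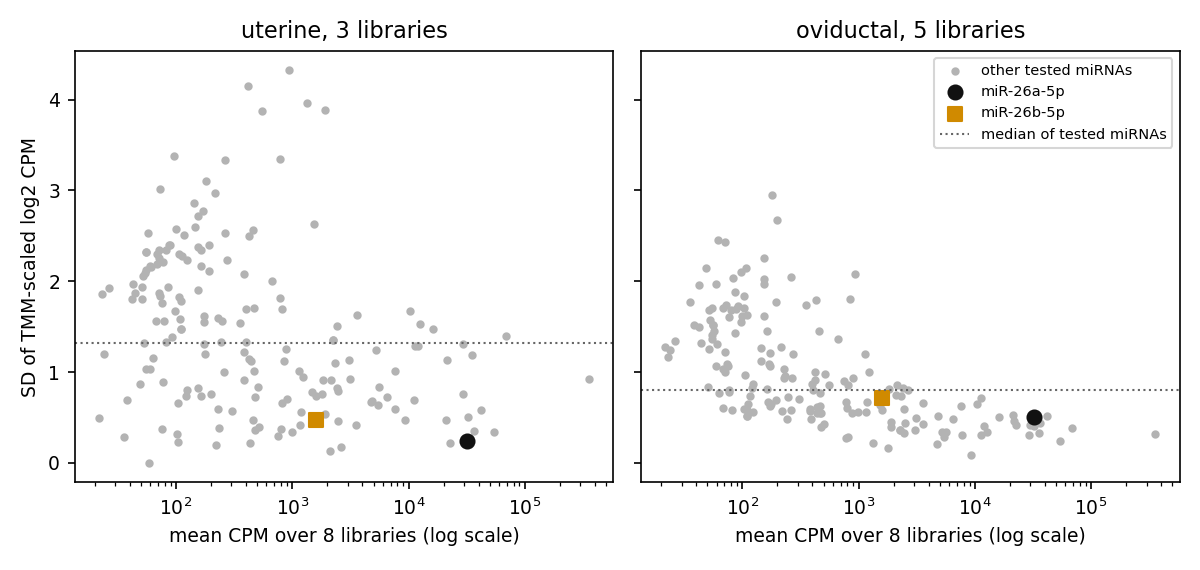
SD of TMM-scaled log2 CPM between the 3 uterine libraries (left) and the 5 oviductal libraries (right) against mean CPM over 8 libraries on a log scale, for the 178 tested miRNAs. miR-26a-5p (black circle) lies at 0.24 in the uterine and 0.51 in the oviductal group, and miR-26b-5p (orange square) at 0.47 in the uterine and 0.72 in the oviductal group; the dotted line is the median of the tested miRNAs.

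The pair tracked each other only loosely across libraries. Pearson's r of their TMM-scaled log2 CPM over the 8 libraries was 0.403 (Spearman's rho 0.452), and 0.158 with library totals as the only scaling. When 1 library was left out the TMM-scaled r ran between 0.295 (without oviductal replicate 2) and 0.558 (without oviductal replicate 4). Among 130 miRNAs with a mean of at least 100 CPM, miR-26b-5p was the 18th most like miR-26a-5p. In turn miR-26a-5p was the 28th most like miR-26b-5p. The median r over the 130 was lower, at 0.001 with miR-26a-5p and 0.048 with miR-26b-5p. The miRNA most like miR-26a-5p was miR-29a-3p at r = 0.863 (rho 0.810; 0.760 to 0.943 for r when 1 library was left out), followed by miR-30a-5p at 0.732, miR-363-3p at 0.702, miR-23b-3p at 0.626 and miR-125b-3p at 0.616. The miRNA most like miR-26b-5p was miR-6529-5p at r = 0.932, where rho was 0.643 and r was 0.707 without oviductal replicate 2. It was followed by miR-12090-5p at 0.868 (rho 0.357), miR-125b-3p at 0.867 (rho 0.929), miR-532-5p at 0.773 (rho 0.714) and miR-185-5p at 0.706 (rho 0.738). The points are 8 libraries that share depth and scaling between miRNAs, and the leading values were picked from many, so they are a description.

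Other miRNAs tied to the same regulators were set beside the pair. Of 27 miRNAs known as repressed by MYC in human and mouse lymphoma work, 23 were in the table and 20 were tested, with 11 positive and 9 negative log2 fold changes. None passed the threshold, which 1.69% of all tested miRNAs passed, so a count of 0 says little of so short a list. Their median was 0.18, against -0.02 for all tested miRNAs. Its sign was not fixed, and the median of all tested miRNAs, given in brackets, moved as well. The list stood at -0.19 (-0.31) with library totals only, -0.05 (-0.40) by limma-voom and -0.06 (0.01) without the 2 shallowest libraries. When 1 library was left out it ran between -0.28 (-0.21, without uterine replicate 3) and 0.35 (-0.004, without oviductal replicate 1). Without uterine replicate 12 it was at -0.05 (0.01). The most abundant besides miR-26a-5p was let-7f-5p, at a log2 fold change of 0.29 ± 0.44 (SE, edgeR adjusted p 0.825). The whole list took 12.9% to 16.1% of uterine and 18.1% to 21.0% of oviductal reads. Such shares also move with miR-148a-3p. In uterine replicates 12, 3 and 4 the list took 16.1%, 14.3% and 12.9%, and miR-148a-3p took 47.6%, 54.4% and 29.2%. The last of these miR-148a-3p values lies inside its oviductal range, and the others lie above it. The part of miR-148a-3p in these shares was not tested.

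Of 9 miRNAs reported to repress EZH2, 7 were tested, with 3 positive and 4 negative values. None passed the threshold, beside the same 1.69% of all tested miRNAs. Their median was the value of miR-26a-5p itself, -0.03, and its sign was not fixed. With the median of all tested miRNAs in brackets, the list stood at -0.38 (-0.31) with library totals only and 0.15 (0.19) with upper-quartile factors. It was at 0.33 (-0.06) with no filter on low counts, where the list also took in members too rare for the main test. With the title-number block it was at -0.26 (-0.05). It ran between -0.31 (-0.21, without uterine replicate 3) and 0.13 (-0.40, without uterine replicate 4) when 1 library was left out. In that list let-7b-5p averaged 39509 ± 21548 CPM over uterine (SD, n = 3) and 43335 ± 15736 CPM over oviductal libraries (SD, n = 5), with a log2 fold change of 0.14 ± 0.41 (SE, edgeR adjusted p 0.937). miR-101-3p, another repressor of EZH2 in human cells, averaged 227 ± 104 CPM over uterine and 215 ± 96.4 CPM over oviductal libraries (SD), less abundant than either leading arm of the miR-26 pair in these counts.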

How the data were processed

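The authors deposited whole-number counts of reads for 8 libraries, 1 row for each pair of mature miRNA and precursor, with their RPM beside them. Dividing each count by its column's sum gave the deposited RPM (library sum 1000000) to within 0.005. Per the submitters' processing notes the build was OryCun2.0 and FastQC was run; no aligner or counter is named in the sources used. Of the 579 names, 35 stood on more than 1 row, and only the one with most reads was used. CPM were computed from the deposited counts over these rows and are not TMM-scaled. Counts were compared with edgeR 4.0.16 under R 4.3.3 (TMM, filterByExpr, quasi-likelihood test with robust shrinkage, Benjamini-Hochberg adjusted p threshold 0.05), fitted on all 178 miRNAs that passed; SEs were derived from the F statistic. The procedure was run on simulated counts, drawn with less spread between libraries than most tested miRNAs showed. That run does not give its error rate for these data. Ratios within libraries had 0.5 reads added and were tested by exact two-sided permutation. Alternatives used DESeq2 1.42.0, limma-voom (limma 3.58.1), other scalings and filters, summed rows, replicate blocks and the removal of libraries.

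The members and lists were chosen with earlier results of these data known. The miRNAs named were the members, the 5 most like each leading arm (at least 100 CPM), its neighbours in the order of group means and, from the MYC and EZH2 lists, the 2 of highest mean CPM. miR-148a-3p and miR-101-3p were named in addition, after their values were seen. Marker lists are given as shares, with single members added after their values were seen.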

Additional observations from a re-analysis of the deposited data

Results flagged for a closer look

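A library far from the other 4 of the oviductal group was looked for in 10 quantities of the miR-26 members, and was found in 3, each time oviductal replicate 5. They were miR-26a-3p at 43.9 CPM, the share of miR-26a-3p in the reads of its precursor at 0.0942%, and miR-26b-3p at 1.76 CPM. The last is a single read. The first and the second describe the same 25 reads. With the other libraries at 0 or 1 read, the zeros fix this outcome for any library that has reads, so the usual chance rate of about 1 in 20 groups does not apply to these counts. Oviductal replicate 5 was the deepest library, with 569087 reads. The uterine group, with 3 libraries, is too small for this check, though 18 of the 44 miR-26a-3p reads lay in uterine replicate 4.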

How the results depend on the processing

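Neither leading arm passed the threshold in any of 18 alternatives, but the sign of so small a value was not fixed. miR-26a-5p, at -0.03, was at 0.15 with upper-quartile factors, 0.064 with no filter on low counts, and -0.31 to 0.15 when 1 library was left out. miR-26b-5p, at 0.35, was at -0.048 to 0.56 when 1 library was left out, negative without uterine replicate 12. With a replicate block by title number the values were 0.32 and -0.14, and by library-name number miR-26a-5p was at 0.081. Same-numbered libraries did not deviate together (r of deviations -0.15, -0.17 and -0.08 for library numbers 1, 3 and 4). These values cannot show whether such libraries shared does. The main test did not take the numbers as pairs, and pairing is unresolved. The difference in the log2 ratio of miR-26a-5p to miR-26b-5p, at -0.39, was -0.63 to -0.16 when 1 library was left out and -0.01 with the replicate block by library-name number, but 0.46 with the block by title number, an alternative added after the data were seen that rests on 2 pairs. That in the 5p to 3p ratio of miR-26a, at 0.29, was at -0.11 without the 2 shallowest libraries, -0.52 with the replicate block by library-name number, -0.77 with that by title number and -0.71 to 1.96 when 1 library was left out. With miR-148a-3p left out of the total, which raises each share by construction, the 4 names summed to 5.12% uterine and 5.37% oviductal. With it in the total these means were 2.87% and 3.68%. The number of miRNAs called over the whole table was 3, and 6 with upper-quartile factors, 1 with library totals, 13 with no filter, 11 by DESeq2, 1 by limma-voom, 7 with rows summed and 1 to 27 when 1 library was left out (1 without oviductal replicate 2 or uterine replicate 12, 9 without uterine replicate 4, 27 without uterine replicate 3). It was 0 by edgeR without the 2 shallowest libraries and with either replicate block, where 20 miRNAs, and 8 (title) or 11 (library name), had an unadjusted p under 0.05. The causes were not tested. The 3p arms did not pass the filter and the 3p arm of miR-26b had 1 read, so their planned tests have no main value. The 36 reads of miR-26b-5p in oviductal replicate 2 limit what can be said of that library.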
